A study of Mus musculus with 7 samples.

Results

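The 2 arrays of mouse brain RNA taken after 3 days of dosing with an extract of Ephedra herba were set against the 4 arrays taken after 1 and 10 days, with the dose held as a block. These 6 arrays, chosen by the day and dose in their titles, are all the treated arrays of a series of 7, and the remaining array is an untreated control. Transcripts were measured on Illumina bead arrays, whose beads carry short probes that capture biotin-labelled cRNA. The groups were day 3 at 50 mg/kg and at 1250 mg/kg, day 1 at 50 mg/kg and at 1250 mg/kg, day 10 at 50 mg/kg and at 1250 mg/kg, and the untreated control. All mice were C57BL/6 females 5 weeks old per the labels, and treated mice received the aqueous extract by mouth once a day for the number of days named. Each combination of day and dose had 1 array, and the number of mice behind each RNA sample is not in the labels. The p-values below therefore measure the spread between these arrays, which may be technical in part. No label names a processing batch, and a batch in which the arrays of a day were handled together cannot be told apart from the day.

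Ephedra stems contain ephedrine and related alkaloids, which release noradrenaline from nerve endings and act on adrenergic receptors, and which enter the brain. In brain tissue, drugs of this class are known for effects on monoamine neurons and on activity-dependent genes. A bulk brain sample mixes RNA of neurons, glia, vessels, ventricle lining and blood. Fewer cells of a type and less RNA per cell cannot be told apart in such a sample, and the regions dissected set the levels of region-specific transcripts.

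The array has 25697 probes, and 13304 of them carried values on every array. The 12150 of these with a gene symbol represented 9009 genes, each by its brightest probe. Values are deposited log intensities after quantile normalization and are taken as log2, where a difference of 1 is a 2-fold difference. No source gives the log base, so fold sizes and counts past a fold rest on that choice, while the signs, the p-values and the counts called by them do not. Markers of brain cells were bright on all arrays. Mbp, the myelin basic protein of oligodendrocytes, read 8.41 to 8.47 on day 3, 8.27 to 8.38 on days 1 and 10 and 8.41 in the control. Syt1, the calcium sensor of synaptic vesicles, read 6.92 to 6.96 on day 3, 6.15 to 6.81 on days 1 and 10 and 6.55 in the control.

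Brain RNA of day 3 stood apart from that of the other days by more than the doses of a day stood apart from each other. Between the 2 day 3 arrays the root mean square difference over genes was 0.167 log2 units. Between a day 3 array and an array of day 1 or 10 it was 0.286 to 0.367, and among the arrays of days 1 and 10 it was 0.195 to 0.286. Day 3 was also farther from the control, at 0.329 to 0.351, than days 1 and 10 were, at 0.170 to 0.259. These distances are descriptions with no test.

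By limma with dose as a block, 533 genes rose (5.92% of all tested) and 223 fell (2.48%) on day 3 relative to days 1 and 10 at a Benjamini-Hochberg adjusted p under 0.05. In either direction this was 756 genes, or 8.39%. The genes that rose had larger differences: 62 were at least 2-fold higher and 302 at least 1.5-fold higher, while 7 were at least 2-fold lower and 48 at least 1.5-fold lower. In 532 of the 533 genes both day 3 arrays lay above all 4 others, and the same 532 also lay above the control. In 214 of the 223 genes both day 3 arrays lay below all 4 others, and 211 of these also lay below the control. Over all genes such separation was common, with 16.7% having both day 3 arrays above and 21.8% below. At an unadjusted p under 0.05, 1097 of the 9009 genes were higher on day 3 and 1143 lower.

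The called genes differed from the control on day 3 far more than on the other days. Genes that rose had a median difference from the control of 0.69 on day 3 and 0.09 on the mean of days 1 and 10. Genes that fell had medians of -0.49 on day 3 and -0.0011 on the mean of days 1 and 10. Since a gene was called only where day 3 differed from days 1 and 10, the contrast of these medians follows in part from the calling, and the control took no part in it.

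Both doses gave differences of like size. All 533 genes that rose were higher than the mean of days 1 and 10 at 50 mg/kg and at 1250 mg/kg, with median differences of 0.61 and 0.64. All 223 genes that fell were lower at both doses, with medians of -0.45 and -0.54. The fit takes both doses together, so the shared sign is a property of the calls. The counts leaned on both day 3 arrays: without the array of 50 mg/kg 83 genes rose and 16 fell, and without the array of 1250 mg/kg 86 rose and 0 fell (333 lower at an unadjusted p under 0.05). Without the day 1 array of 50 mg/kg the counts were 306 and 57, and without the day 10 array of 1250 mg/kg 666 and 394. In every fit that left out 1 of the 6 arrays 53 genes rose and 0 fell, and the 15 genes with the largest increases were all among the 53 but for Acadsb.

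**Figure D1:**
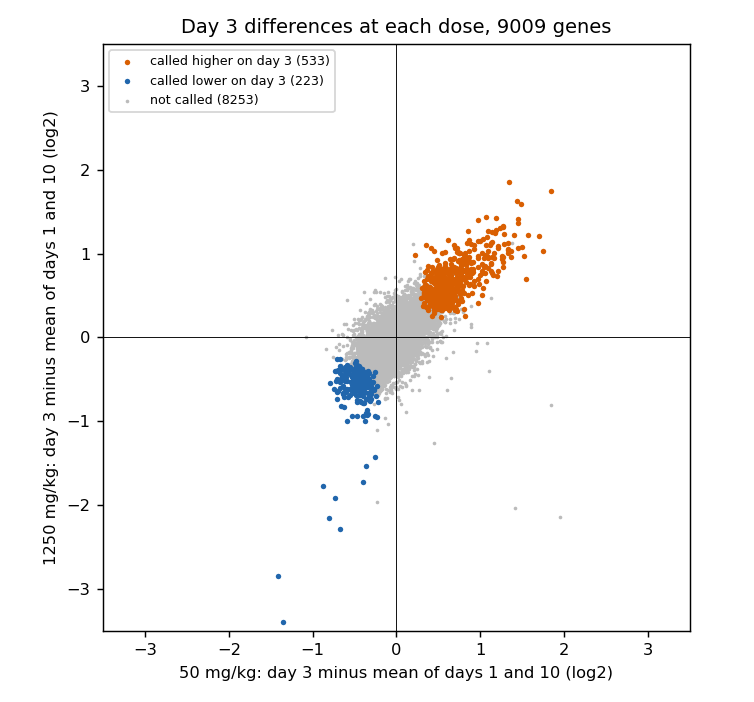
Each point is 1 of the 9009 genes, with its log2 difference between day 3 and the mean of days 1 and 10 at 50 mg/kg on the horizontal axis and at 1250 mg/kg on the vertical axis. The 533 genes called higher on day 3 lie at the upper right and the 223 called lower at the lower left, with the other genes in grey.

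Promoters of members with large separated differences are shown here, since genes that moved together may be compared at their start sites. For each direction the 2 leading genes with a single RefSeq promoter entry are given, after the genes of a single chromosome were left out. They are therefore not the 2 largest differences of each direction. Atp5a1 (1.59) was passed over for Atp6v1a (1.54), and Apoc3 (-1.48) and Mrpl2 (-0.79) for Ddb1 (-0.74). The windows are from RefSeq (GRCm38.p6, 300 bases around the annotated start, written 5′ to 3′ on the gene's strand). Capitals mark the GC box GGCGGG or its reverse complement, a motif bound by Sp-family factors. Slc7a14 and Atp6v1a rose, and Hba-a1 and Ddb1 fell. The regions are chr3:31310270-31310569 on the minus strand for Slc7a14, chr16:44139210-44139509 on the minus strand for Atp6v1a, chr11:32283422-32283721 on the plus strand for Hba-a1 and chr19:10605347-10605646 on the plus strand for Ddb1.
Slc7a14: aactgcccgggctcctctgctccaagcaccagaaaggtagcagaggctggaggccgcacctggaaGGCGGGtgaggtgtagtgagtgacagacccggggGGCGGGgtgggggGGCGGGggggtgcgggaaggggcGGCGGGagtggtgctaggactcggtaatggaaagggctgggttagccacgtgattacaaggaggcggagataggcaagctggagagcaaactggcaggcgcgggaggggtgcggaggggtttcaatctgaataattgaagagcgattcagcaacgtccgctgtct
Atp6v1a: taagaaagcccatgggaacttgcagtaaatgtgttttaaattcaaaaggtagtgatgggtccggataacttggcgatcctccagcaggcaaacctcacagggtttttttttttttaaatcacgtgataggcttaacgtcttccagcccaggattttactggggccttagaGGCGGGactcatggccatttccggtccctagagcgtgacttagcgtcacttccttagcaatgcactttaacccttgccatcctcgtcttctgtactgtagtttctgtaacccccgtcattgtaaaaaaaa
Hba-a1: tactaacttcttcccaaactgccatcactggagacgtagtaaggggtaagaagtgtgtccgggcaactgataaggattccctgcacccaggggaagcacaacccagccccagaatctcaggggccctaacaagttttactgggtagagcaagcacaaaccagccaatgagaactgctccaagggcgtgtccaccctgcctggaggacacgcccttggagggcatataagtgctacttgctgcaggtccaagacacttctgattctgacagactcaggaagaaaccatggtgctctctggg
Ddb1: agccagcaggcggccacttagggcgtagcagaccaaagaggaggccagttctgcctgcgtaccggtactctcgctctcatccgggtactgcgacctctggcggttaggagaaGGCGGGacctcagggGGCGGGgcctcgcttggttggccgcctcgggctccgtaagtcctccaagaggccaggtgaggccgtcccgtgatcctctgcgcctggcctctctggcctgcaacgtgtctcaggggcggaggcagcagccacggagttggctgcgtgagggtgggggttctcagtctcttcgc

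The Slc7a14 promoter held 4 GC boxes at 63.3% GC, that of Atp6v1a 1 at 45.3%, that of Ddb1 2 at 66.7% and that of Hba-a1 none at 53.3%. A GC box on either strand stood in 63.6% of 434 promoters of genes that rose, in 56.8% of 176 promoters of genes that fell and in 62.4% of 7311 promoters of all genes measured. The CCAAT motif on either strand stood in 35.0%, 42.6% and 38.3% of the same sets. Median GC content was 63.2%, 58.0% and 60.7%. These are descriptions of letters in the window and no test was made.

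The genes with the largest increases were of varied function. Slc7a14, a member of the cationic amino acid transporter family, read 3.51 and 3.38 on day 3 (50 and 1250 mg/kg, the order of every pair below), against 1.52 and 1.58 on day 1, 1.82 and 1.68 on day 10 and 1.68 in the control. Both day 3 arrays lay more than 1.5 log2 units above every other array, and the difference was 1.79 ± 0.12 (standard error of the limma fit, 2 arrays against 4, adjusted p = 0.000122). Atp6v1a, the catalytic subunit of the proton pump that acidifies lysosomes and synaptic vesicles, read 4.75 and 4.97 on day 3, against 3.21 and 3.28 on day 1, 3.32 and 3.48 on day 10 and 3.18 in the control. Its difference was 1.54 ± 0.11 (limma adjusted p = 0.000122). Atp5a1, the alpha subunit of mitochondrial ATP synthase, read 2.28 and 2.80 on day 3, against 0.92 and 0.74 on day 1, 0.96 and 1.16 on day 10 and 0.78 in the control, a difference of 1.59 ± 0.15 (limma adjusted p = 0.000382). Lack of overlap with days 1 and 10 was a condition for naming these 3 genes. Their day 3 values also lay above the control, which was no part of that condition.

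Kcna1, Pabpc1 and Ddx3x differed by nearly as much. Kcna1, which encodes the axonal potassium channel Kv1.1, read 4.07 and 4.27 on day 3, against 2.78 and 2.81 on day 1, 2.50 and 2.48 on day 10 and 3.07 in the control. Its difference was 1.53 ± 0.14 (limma adjusted p = 0.000273). Pabpc1, the cytoplasmic protein that binds poly(A) tails, read 3.38 and 3.08 on day 3, against 1.59 and 1.82 on day 1, 1.75 and 1.91 on day 10 and 1.82 in the control. Here the higher of the day 3 values was that of 50 mg/kg, and the difference was 1.46 ± 0.14. Ddx3x, an RNA helicase of translation initiation encoded on the X chromosome, read 1.78 and 2.01 on day 3, against 0.15 and 0.44 on day 1, 0.51 and 0.86 on day 10 and 0.15 in the control, a difference of 1.41 ± 0.15. For all 3 genes day 3 and the other days were apart by more than the spread within either.

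Of the other genes among the 15 with the largest increases, Ptma (prothymosin alpha, a chromatin-associated protein) differed by 1.43, Sparcl1 (a matricellular protein secreted by astrocytes) by 1.40 and Pgrmc1 (a haem-binding membrane protein) by 1.39. Kpnb1, the importin beta of nuclear import, read 1.99 and 2.22 on day 3, against 0.45 and 0.88 on day 1, 0.99 and 0.92 on day 10 and 0.43 in the control. Aldh1a1, an enzyme that makes retinoic acid, read 1.91 and 1.79 on day 3, against 0.20 and 0.49 on day 1, 0.63 and 0.92 on day 10 and 0.30 in the control. Acadsb, an acyl-CoA dehydrogenase of branched-chain amino acid breakdown, differed by 1.31 and Pcmtd2, a member of the isoaspartyl methyltransferase family, by 1.27. Acadsb was no longer called without the day 3 array of 1250 mg/kg (1.19, limma adjusted p = 0.0655). In these genes too the day 3 arrays lay above the control, and above days 1 and 10 by the condition for naming them.

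Gpm6a, a neuronal membrane glycoprotein, and Esd, esterase D, complete the 15, and their increases were seen on the brightest probe only. Gpm6a read 3.54 and 3.67 on day 3, against 2.03 and 2.10 on day 1, 2.25 and 2.78 on day 10 and 1.85 in the control, a difference of 1.31. On its second brightest probe the difference was -0.24. For Esd the difference was 1.30 on the brightest probe and -0.06 on the second. For Slc7a14 a second probe gave 1.71 beside 1.79.

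**Figure D2:**
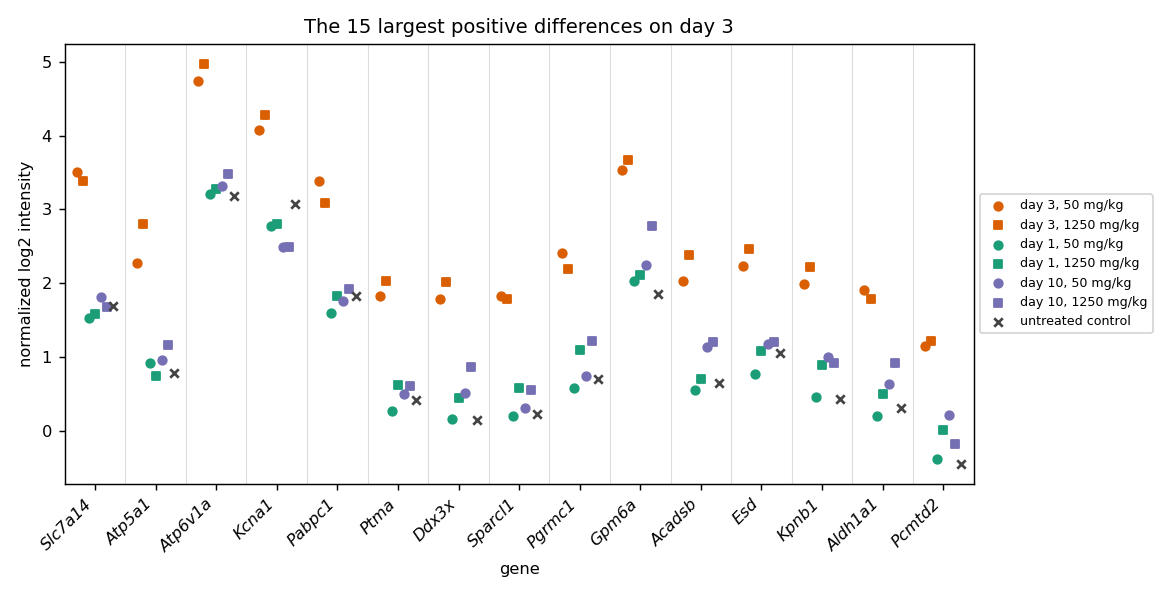
Normalized log2 intensity (vertical axis) of the 15 genes with the largest increases on day 3 among called genes with no overlap, 1 point per array, with day 3 in orange. In all 15 genes both day 3 points lie above the points of days 1 and 10 and of the control.

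Probes of the same gene often differed in size. Of the 533 genes that rose, 120 had a second probe, on which the median difference was 0.17, beside 0.60 on the brightest. On that second probe 85 differences were positive and 35 negative, and 58 (48.3%) had both day 3 arrays above all 4 others. For second probes of the 2100 genes not called this was 18.9%. Of the 223 genes that fell, 53 had a second probe, with a median of -0.21 beside -0.50 on the brightest, 40 negative and 13 positive. Both day 3 arrays lay below on 26 of these (49.1%), against 19.5% for second probes of genes not called. Second probes were dimmer, with a median over genes of 1.11 in mean intensity against 2.42 in the genes that rose. The part of probe position, transcript form or dim signal in this was not tested.

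**Figure D3:**
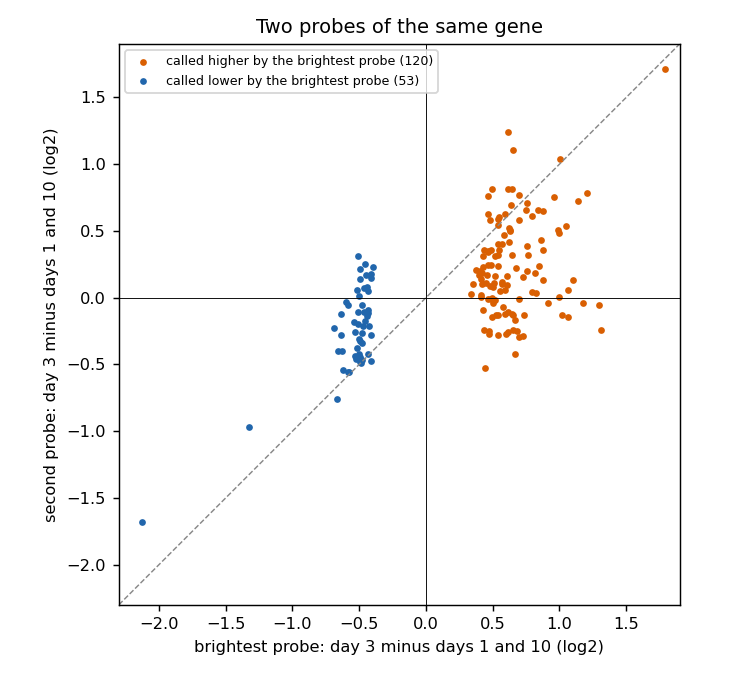
Log2 difference between day 3 and days 1 and 10 on the brightest probe (horizontal axis) and on the second brightest probe (vertical axis) of genes with more than 1 probe. Of the 120 genes called higher, 85 have a positive second probe, and of the 53 called lower, 40 have a negative one.

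The genes that rose were longer on the genome than those that fell. Their median span from annotated start to end was 31.5 kb, against 10.4 kb for genes that fell and 22.3 kb for all genes. Genes were also split by span into 5 bins of like number. In the bin of longest spans 8.82% rose and 0.943% fell, and in the bin of shortest spans 3.94% rose and 4.61% fell. In 5 bins by mean intensity the share that rose was 5.83%, 8.49%, 6.55%, 5.22% and 3.50%, dimmest first. The part of RNA quality or labelling in these values was not tested.

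Ubiquitin conjugation, which tags proteins for turnover, had the most genes that rose of the groups described. Of 36 measured enzymes and regulators 8 rose and 0 fell (22.2% higher, against 5.92% over all genes), with a median difference of 0.09, against -0.04 over all genes. The list holds neither Ube2l6, a ubiquitin-conjugating enzyme, nor Ddb1, an adaptor of ubiquitin ligases, and both fell (-0.66 and -0.74). Of 19 measured genes in the symbol family of ubiquitin-conjugating enzymes 6 rose (31.6%, against 5.92% over all genes) and 1 fell (5.26%, against 2.48%). Ube2d3, a ubiquitin-conjugating enzyme, read 2.82 and 2.74 on day 3, against 1.85 and 1.95 on day 1, 1.93 and 2.19 on day 10 and 1.81 in the control (difference 0.80 ± 0.13, limma adjusted p = 0.00353). Usp14, the deubiquitinase of the proteasome, rose by 0.78, Ube2j1, an enzyme of the endoplasmic reticulum, by 0.68, and Ube3a, the imprinted ligase of Angelman syndrome, by 0.68. Both day 3 arrays lay above all 4 others in 14 of the 36 (38.9%, against 16.7% over all genes) and below in 8 (22.2%, against 21.8%). Without either 1 of the day 3 arrays 1 of the 36 was called, and without the day 1 array of 50 mg/kg 5 were.

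The proteasome, which degrades the tagged proteins, had few calls. Of 40 measured subunits 1 rose (2.50%, against 5.92% over all genes) and 1 fell (2.50%, against 2.48%), and the median was -0.11. Both day 3 arrays lay below all others in 15 (37.5%, against 21.8%) and above in 5 (12.5%, against 16.7%). Psmd14, the deubiquitinating lid subunit, read 2.63 and 2.76 on day 3, against 1.96 and 1.95 on day 1, 2.25 and 2.38 on day 10 and 2.04 in the control, a difference of 0.56 ± 0.15 (limma adjusted p = 0.0377). Psmd4, a ubiquitin receptor of the regulatory particle, read 6.16 and 5.99 on day 3, against 6.49 and 6.46 on day 1, 6.40 and 6.46 on day 10 and 6.42 in the control, a difference of -0.37 ± 0.09 (limma adjusted p = 0.0330). Neither Psmd14 nor Psmd4 was called without either 1 of the day 3 arrays (0 calls in each direction), and Psmd14 was also lost without either 1 of the day 1 arrays. The Psmd4 call was also lost in the deposited values (-0.51, limma adjusted p = 0.111) and after median scaling (-0.49, adjusted p = 0.0939).

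In a list of 27 measured chaperones and genes of the unfolded protein response 21 had positive differences, against 3871 of 9009 genes. By the test 5 rose (18.5%, against 5.92% over all genes) and 1 fell (3.70%, against 2.48%), and the median was 0.14. Both day 3 arrays lay above all 4 others in 11 (40.7%, against 16.7%) and below in 2 (7.41%, against 21.8%). Symbol families of chaperones were less one-sided. Of 29 DNAJ proteins 13 differences were positive and 16 negative, with a median of -0.08. By limma 4 of them rose (13.8%, against 5.92% over all genes) and 1 fell (3.45%, against 2.48%). Of 14 heat shock proteins 8 were positive and 6 negative, with a median of 0.10, and 3 rose (21.4%) and 0 fell. The mitochondrial pair Hspe1 and Hspd1, which fold imported proteins as a co-chaperone and chaperonin, led the list. Hspe1 read 2.22 and 2.58 on day 3, against 1.04 and 1.51 on day 1, 1.17 and 1.45 on day 10 and 1.19 in the control, a difference of 1.11 ± 0.11 (limma adjusted p = 0.000528). Hspd1 read 4.44 and 4.48 on day 3, against 3.35 and 3.47 on day 1, 3.87 and 3.89 on day 10 and 3.40 in the control (0.81 ± 0.16), and its second probe gave 0.19. Dnajb9 and Hsp90b1, chaperones of the endoplasmic reticulum, rose by 0.71 and 0.67. Without either 1 of the day 3 arrays 1 of the 27 rose, and without the day 1 array of 50 mg/kg, in the deposited values and after median scaling 3 did.

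Groups of translation and RNA handling differed in their number of calls, from 6 genes to 0. Of 37 translation initiation factors and regulators 6 rose (16.2%, against 5.92% over all genes) and 0 fell, although the median was -0.07. Both day 3 arrays lay below all others in 11 (29.7%, against 21.8%) and above in 10 (27.0%, against 16.7%). Eif2ak3, the stress kinase PERK that phosphorylates an initiation factor, read 0.99 and 0.90 on day 3, against -0.08 and 0.04 on day 1, 0.30 and 0.16 on day 10 and 0.11 in the control (0.84 ± 0.12, limma adjusted p = 0.00260). Eif3k rose by 0.77, Eif4ebp2, a repressor of cap-dependent translation in brain, by 0.56 and Eif4g2 by 0.55. Of 33 DEAD and DEAH box helicases 5 rose (15.15%, against 5.92% over all genes) and 0 fell, with a median of 0.01. Among those that rose were Ddx21 (0.89), Ddx6 (0.65) and Dhx36 (0.60). Without the day 3 array of 50 mg/kg 0 initiation factors and 2 helicases were called, without that of 1250 mg/kg 0 and 1, and without the day 1 array of 50 mg/kg 3 and 3. Some other groups of this kind had 0 genes that rose by limma, while some groups not described here had 1 to 4. The shares over all genes were 5.92% higher and 2.48% lower by limma. At an unadjusted p under 0.05, 1097 of all 9009 genes were higher and 1143 lower. Of 37 splicing factors and RNA-binding proteins 0 were called, with 1 higher and 3 lower at an unadjusted p under 0.05. Of 22 SR proteins and hnRNPs 0 were called (0 and 1 at the unadjusted p), and of 19 spliceosomal SM and LSM proteins 0 (1 and 4). Of 26 aminoacyl-tRNA synthetases 1 fell (1 higher and 6 lower at the unadjusted p).

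RNA-binding families of the CELF, MBNL, RBFOX and PUM type, which steer splicing and mRNA stability in neurons, had a median of 0.16 over 17 members. The group also holds Cpeb3, which is of none of these 4 families. Of these 3 rose (17.65%, against 5.92% over all genes) and 0 fell, and both day 3 arrays lay above all 4 others in 8 (47.1%, against 16.7%). Pum2, a translational repressor, read 2.59 and 2.83 on day 3, against 1.94 and 2.34 on day 1, 2.00 and 2.03 on day 10 and 2.03 in the control (0.63 ± 0.12, limma adjusted p = 0.0113). Cpeb3 rose by 0.70 and Rbfox2 by 0.49, although the second probe of Rbfox2 gave -0.14. Celf2 did not pass the test (0.35, limma adjusted p = 0.181). Of 14 genes grouped under cleavage and polyadenylation 3 rose (21.4%, against 5.92% over all genes) and 0 fell. They were the poly(A) polymerase Papola (0.80), Fip1l1 (0.74, and -0.13 on its second probe) and Pabpc1. Pabpc1 binds poly(A) tails in the cytoplasm and is not itself a cleavage or polyadenylation factor, so the share is not one of such factors alone. Without either 1 of the day 3 arrays 0 of the 17 and 1 of the 14 were called.

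Energy metabolism was mixed between and within its parts. Of 24 measured genes of the tricarboxylic acid cycle and its side reactions 4 rose (16.7%, against 5.92% over all genes) and 0 fell, with a median of 0.06. Me1, the cytosolic malic enzyme, read 1.79 and 2.32 on day 3, against 1.03 and 1.18 on day 1, 0.86 and 1.20 on day 10 and 0.95 in the control (0.99 ± 0.12, limma adjusted p = 0.000952). Idh2, the mitochondrial isocitrate dehydrogenase, rose by 0.90, and Sdhd, an anchor subunit of succinate dehydrogenase, by 0.66. Of 37 subunits of respiratory complex I 5 rose (13.5%, against 5.92% over all genes) and 1 fell (2.70%, against 2.48%), with a median of -0.07. The members named were all of the membrane arm: Ndufb9 read 2.29 and 2.37 on day 3, against 1.14 and 1.52 on day 1, 1.42 and 1.47 on day 10 and 1.10 in the control (0.95 ± 0.12, limma adjusted p = 0.00126), and Ndufb5, Ndufb2 and Ndufb4 rose by 0.85, 0.69 and 0.54. In the 2 lists 1 and 0 rose without the day 3 array of 50 mg/kg, 1 and 2 without that of 1250 mg/kg, and 2 and 2 without the day 1 array of 50 mg/kg.

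Most mitochondrial ribosomal protein genes had negative differences, 52 of 66, against 5138 of 9009 genes. Both day 3 arrays lay below all 4 others in 27 of 66 (40.9%, against 21.8% over all genes) and above in 3 (4.5%, against 16.7%). The median was -0.16, against -0.04 over all genes. By the test 3 rose and 3 fell, and the counts were 0 and 1 without the day 3 array of 50 mg/kg, 1 and 0 without that of 1250 mg/kg and 1 and 1 without the day 1 array of 50 mg/kg. In the main fit 4.5% of the list was called in each direction, against 5.92% higher and 2.48% lower over all genes. With no dose block 3 rose and 7 fell (608 and 310 of all genes), and without the day 10 arrays 4 rose and 13 fell (1081 and 1050). Mrpl2, a large-subunit protein, read 3.43 and 3.20 on day 3, against 4.08 and 4.25 on day 1, 3.96 and 4.13 on day 10 and 4.20 in the control, a difference of -0.79 ± 0.12 (limma adjusted p = 0.00329). Mrps28 fell by 0.50, whereas Mrps15 and Mrpl20 rose by 0.80 and 0.69. Relative to the median of all genes the list's median was -0.13, and it was -0.15 in the deposited values and after median scaling. Mrpl2 was not called without the day 3 array of 1250 mg/kg (-0.59, limma adjusted p = 0.205).

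Potassium channels and protein phosphatase subunits had calls near the share over all genes. Of 50 potassium channel genes 4 rose (8%, against 5.92% over all genes) and 0 fell, with a median of -0.03: Kcna1, Kcnd2 of the transient A-type current (0.74), Kcnj12 of the inward rectifiers (0.55) and Kcnma1 of the calcium-activated BK current (0.48). Kcnd2 read 4.16 and 4.08 on day 3, against 3.46 and 3.48 on day 1, 3.31 and 3.29 on day 10 and 3.35 in the control. Of 50 protein phosphatase subunits 4 rose (8%) and 0 fell, and both day 3 arrays lay above all 4 others in 15 (30.0%, against 16.7% over all genes) and below in 2 (4%, against 21.8%). Ppp4r3b, a regulatory subunit of phosphatase 4, rose by 1.14, and Ppp2r2c, a brain-enriched regulatory subunit of phosphatase 2A, by 0.99. Of 18 adenylyl cyclases and phosphodiesterases, which make and break cyclic nucleotides, 3 rose (16.7%, against 5.92% over all genes) and 0 fell: Pde10a of striatal neurons (0.72 ± 0.18, limma adjusted p = 0.0310), Pde8a (0.65) and Pde1a (0.46). Markers of striatal neurons did not rise as a group, with 3 positive and 13 negative differences and a median of -0.10. Without the day 3 array of 50 mg/kg the calls in the 3 lists were 1, 2 and 0, without that of 1250 mg/kg 1, 1 and 0, and without the day 1 array of 50 mg/kg 3, 3 and 1.

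Synaptic and cytoskeletal genes were close to the background in number of calls. Of 41 genes of the synaptic vesicle and its fusion 3 rose (7.32%, against 5.92% over all genes) and 0 fell. Separation was more common, with both day 3 arrays above all 4 others in 14 (34.15%, against 16.7%) and below in 6 (14.6%, against 21.8%). Syn2, a synapsin that tethers vesicles, read 6.95 and 6.98 on day 3, against 6.22 and 5.85 on day 1, 6.23 and 6.08 on day 10 and 6.22 in the control (0.87 ± 0.11, limma adjusted p = 0.000947). Rims1, an active zone scaffold, rose by 0.61. Of 51 genes of axonal transport and the cytoskeleton 4 rose (7.84%, against 5.92% over all genes) and 1 fell (1.96%, against 2.48%). Stmn1, the microtubule-destabilizing stathmin, read 2.00 and 2.00 on day 3, against 0.67 and 0.90 on day 1, 0.68 and 0.83 on day 10 and 0.72 in the control (1.23 ± 0.11, limma adjusted p = 0.000297). Gap43, the growth cone protein and the one called gene among 16 neuronal markers, rose by 1.02. Map1b rose by 0.73 on its brightest probe and gave 0.16 on its second. Without the day 3 array of 50 mg/kg 1 gene rose in each of the 2 lists, without that of 1250 mg/kg 0 and 1, and Gap43 was called in neither case.

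Genes of membrane traffic were also called at near the share over all genes. Of 54 genes of the endosome, Golgi and secretory path 4 rose (7.41%, against 5.92%) and 2 fell (3.70%, against 2.48%), with a median of -0.03 (0.01 relative to all genes, and -0.05 in the deposited values and after median scaling). Snx3, a sorting nexin of endosomes, read 1.19 and 1.11 on day 3, against -0.21 and -0.14 on day 1, 0.23 and -0.20 on day 10 and 0.06 in the control (1.23 ± 0.13, limma adjusted p = 0.000528). Vapa, a tether of the endoplasmic reticulum, read 1.55 and 2.49 on day 3, against 0.51 and 0.99 on day 1, 0.65 and 1.17 on day 10 and 0.46 in the control (1.19 ± 0.13), with the higher day 3 value at 1250 mg/kg. Rab10, a small GTPase of exocytosis, rose by 1.01. Without either 1 of the day 3 arrays 2 genes of the list rose and 0 fell.

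**Figure D4:**
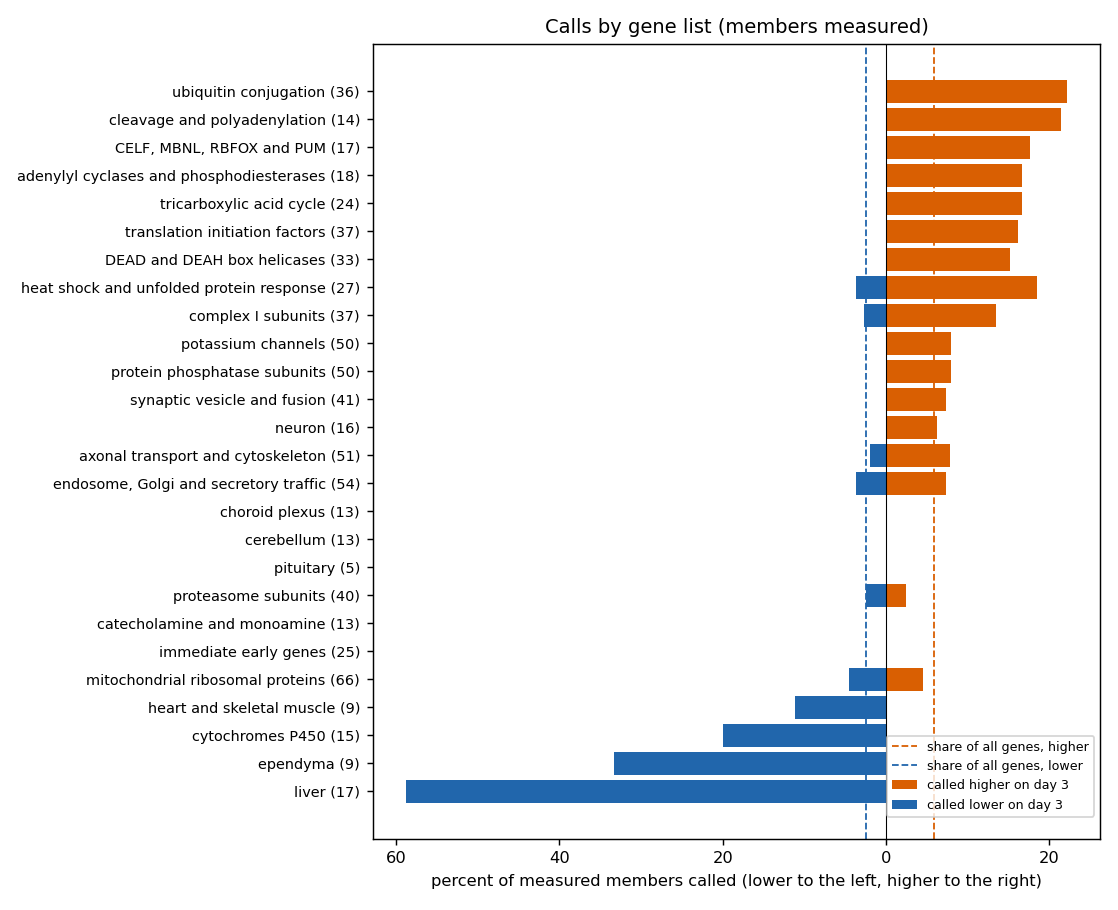
Share of the measured members of each described list that were called higher or lower on day 3 (horizontal axis, percent), with the number measured beside each list name and the share over all genes marked. Ubiquitin conjugation has the most calls that rose (8 of 36) and the liver list the most that fell (10 of 17).

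Hba-a1, Ddb1 and Laptm4a were among the 15 genes with the largest decreases without overlap. Hba-a1, an alpha globin of red cells, read 7.60 and 7.02 on day 3, against 7.70 and 8.41 on day 1, 8.02 and 8.47 on day 10 and 7.54 in the control. The day 3 arrays lay below all 4 others, while the control lay between them, and the difference was -0.84 ± 0.20 (limma adjusted p = 0.0269). Its probe may also read the near-identical Hba-a2. Ddb1, the adaptor of CUL4 ubiquitin ligases in DNA repair, read 2.30 and 2.35 on day 3, against 3.09 and 3.52 on day 1, 2.83 and 2.81 on day 10 and 2.98 in the control (-0.74 ± 0.18, limma adjusted p = 0.0278). Laptm4a, a lysosomal membrane protein, read 3.55 and 3.51 on day 3, against 4.19 and 4.26 on day 1, 4.15 and 4.42 on day 10 and 4.41 in the control (-0.73 ± 0.11, limma adjusted p = 0.00302). For Ddb1 and Laptm4a the control lay with days 1 and 10. Hba-a1 was not called without the day 3 array of 1250 mg/kg (-0.26, limma adjusted p = 0.561) or the day 1 array of 1250 mg/kg (-0.77, adjusted p = 0.0782).

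Tubg1, the gamma tubulin that nucleates microtubules, had little spread among the arrays of days 1 and 10 (SD 0.05, n = 4). It read 2.84 and 2.89 on day 3, against 3.55 and 3.65 on day 1, 3.55 and 3.60 on day 10 and 3.52 in the control (-0.72 ± 0.11, limma adjusted p = 0.00236). Without the day 3 array of 50 mg/kg the difference was -0.73 (adjusted p = 0.0815) and without that of 1250 mg/kg -0.71 (adjusted p = 0.117). Fzd10, a Wnt receptor, fell by 0.70, Rsph3a, a radial spoke protein of motile cilia, by 0.68, and Rnf112, a RING finger protein of brain, by 0.68. Bst2 and Ube2l6, both interferon-induced, fell by 0.67 and 0.66. Over the 14 measured genes of the interferon list, which holds Bst2 and not Ube2l6, 1 rose (7.14%, against 5.92% over all genes) and 2 fell (14.3%, against 2.48%).

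**Figure D5:**
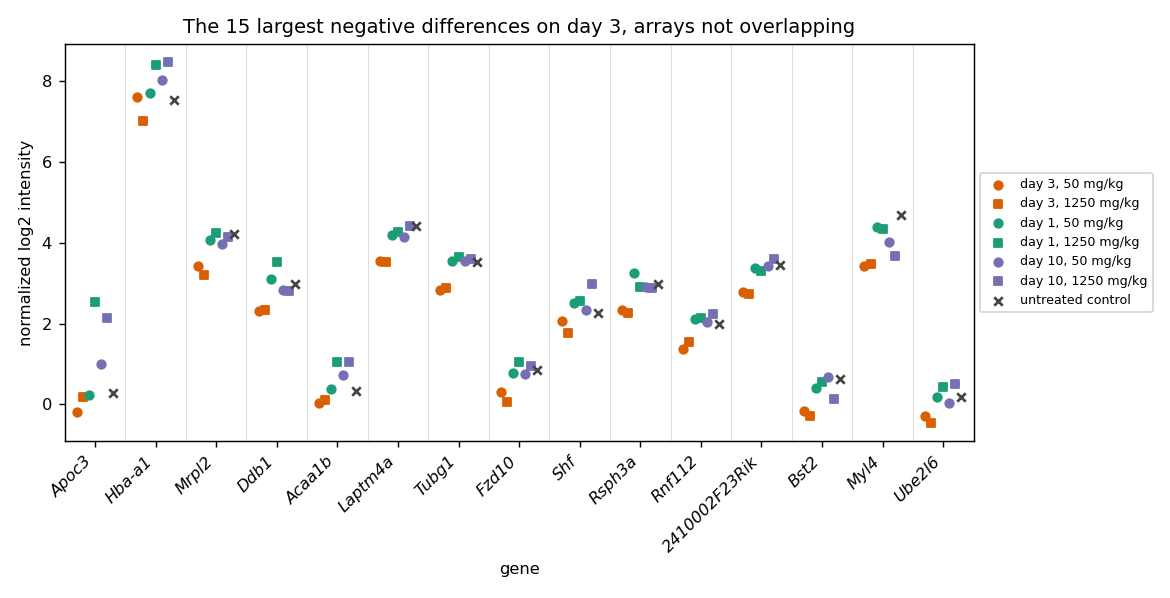
Normalized log2 intensity (vertical axis) of the 15 genes with the largest decreases on day 3 among called genes with no overlap, 1 point per array, with day 3 in orange. In all 15 genes both day 3 points lie below those of days 1 and 10.

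Transcripts of other tissues and of the ventricle lining made up part of what fell. Of 17 measured liver genes 10 fell (58.8%, against 2.48% over all genes) and 0 rose, with a median of -0.59. However, both day 3 arrays lay below all 4 others in 4 of the 17 (23.5%, against 21.8% over all genes). Apoa2, a plasma apolipoprotein, read 0.05 and 0.87 on day 3, against 0.30 and 4.85 on day 1, 2.49 and 3.68 on day 10 and 0.50 in the control (-2.37 ± 0.56, limma adjusted p = 0.0269). Serpina1b, a plasma protease inhibitor, read -0.81 and 0.51 on day 3, against -0.59 and 3.45 on day 1, 1.79 and 3.26 on day 10 and -0.52 in the control. Apoc3, which had no overlap, read -0.19 and 0.19 on day 3, against 0.23 and 2.54 on day 1, 0.99 and 2.15 on day 10 and 0.29 in the control (-1.48 ± 0.28, limma adjusted p = 0.00919). The mean of the list was 1.05 and 1.39 on day 3, against 1.10 and 2.74 on day 1, 1.79 and 2.62 on day 10 and 1.17 in the control, so the day 3 arrays and the day 1 array of 50 mg/kg lay near the control and the other 3 lay above it. The 10 calls became 0 with no dose block, 0 without the day 3 array of 1250 mg/kg, 3 without the day 1 array of 1250 mg/kg and 1 with the control added to days 1 and 10.

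Ependymal transcripts, many of them of motile cilia, also fell in part. Of 9 measured 3 fell (33.3%, against 2.48% over all genes) and 0 rose, with a median of -0.36. Both day 3 arrays lay below all 4 others in 6 (66.7%, against 21.8% over all genes). Dynlrb2, a dynein light chain of cilia, read 1.29 and 1.20 on day 3, against 1.94 and 2.00 on day 1, 1.60 and 1.78 on day 10 and 1.86 in the control (-0.58 ± 0.14, limma adjusted p = 0.0251). Rsph1, a radial spoke protein, fell by 0.55, and Rarres2, the precursor of chemerin, by 0.59. The mean of the list was 1.74 and 1.69 on day 3, against 2.05 and 2.22 on day 1, 1.87 and 1.98 on day 10 and 2.07 in the control. The 3 calls became 0 without either 1 of the day 3 arrays or the day 1 array of 50 mg/kg, and 1 without the day 1 array of 1250 mg/kg.

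Muscle, P450 and choroid plexus genes had fewer calls. Of 9 measured genes of heart and skeletal muscle 0 rose and 1 fell (11.1%, against 2.48% over all genes). This was Myl4, an atrial myosin light chain, at 3.42 and 3.47 on day 3, against 4.39 and 4.33 on day 1, 4.02 and 3.68 on day 10 and 4.67 in the control. Myl2, the ventricular light chain, read 0.59 and 0.36 on day 3, against 0.45 and 0.30 on day 1, 2.87 and 0.41 on day 10 and 2.95 in the control. Of 15 cytochromes P450 3 fell (20%, against 2.48% over all genes): Cyp4f13 by 0.60, Cyp2a5, which is made in liver, by 0.59 and Cyp4v3 by 0.47. The 3 calls became 1 without the day 3 array of 50 mg/kg or the day 1 array of 1250 mg/kg, and 0 without the day 3 array of 1250 mg/kg or the day 1 array of 50 mg/kg. Cyp2a5 was also lost with no dose block (limma adjusted p = 0.174). Myl4 lost its call without either 1 of the day 3 arrays or of the day 1 arrays. Of 13 choroid plexus markers 0 were called by limma. At an unadjusted p under 0.05, 0 were higher and 4 lower, against 1097 and 1143 of all 9009 genes. Both day 3 arrays lay below all 4 others in 5 (38.5%, against 21.8% over all genes), and the median was -0.18. The part of dissection and of tissue carried with the brain in any of these differences was not tested.

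Markers of the cerebellum and hindbrain gave 0 calls by limma against days 1 and 10 together. Of 13 cerebellar markers 0 were higher and 0 lower at an unadjusted p under 0.05, and 0 had both day 3 arrays on 1 side of all 4 others. Over all 9009 genes 1097 were higher and 1143 lower at that p, and 16.7% lay above and 21.8% below. Without the day 10 arrays 8 of the 13 were higher on day 3 and 0 lower (1081 and 1050 of all 9009 genes). Without the day 10 array of 1250 mg/kg alone 5 were higher (666 of all genes). Without the day 1 arrays 0 were higher and 4 lower (767 and 530 of all genes). Their mean was 2.46 and 2.20 on day 3, against 1.56 and 1.72 on day 1, 2.37 and 3.16 on day 10 and 1.72 in the control. Pcp2 of Purkinje cells read 3.02 and 1.93 on day 3, against -0.63 and 0.40 on day 1, 3.00 and 5.07 on day 10 and 0.04 in the control. The 5 hindbrain markers averaged 1.04 and 1.10 on day 3, against 0.39 and 0.49 on day 1, 0.77 and 0.95 on day 10 and 0.63 in the control, and 2 were higher and 1 lower at an unadjusted p under 0.05. The 16 neuronal markers averaged 5.13 and 5.14 on day 3, against 4.90 and 5.01 on day 1, 4.99 and 5.02 on day 10 and 4.92 in the control, with a median difference of 0.10. Their part in the genes that rose was not tested.

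Monoamine and activity genes, the classes most tied to the extract's alkaloids, gave 0 calls by limma against days 1 and 10 together. Of 13 genes of catecholamine and monoamine handling both day 3 arrays lay above all 4 others in 3 (23.1%, against 16.7% over all genes). At an unadjusted p under 0.05, 3 of the 13 were higher and 0 lower, against 1097 and 1143 of all 9009 genes. Without the day 10 arrays 4 were called higher and 1 lower (1081 and 1050 of all genes). Without the day 1 arrays 1 was called higher and 0 lower (767 and 530 of all genes). Tph2, the serotonin-synthesizing enzyme of the raphe in the hindbrain, read 2.01 and 2.10 on day 3, against 0.00 and 0.20 on day 1, 1.26 and 1.76 on day 10 and 0.60 in the control (1.25 ± 0.39, limma adjusted p = 0.0704). Slc6a4, the serotonin transporter of the same neurons, read 0.69 and 0.77 on day 3, against -0.49 and -0.59 on day 1, 0.10 and 0.60 on day 10 and -0.22 in the control (0.83 ± 0.26, limma adjusted p = 0.0787). Both passed the test in the deposited values (limma adjusted p = 0.0324 and 0.0409) and after median scaling (0.0399 and 0.0493). Of 25 immediate early genes, which neurons induce upon firing, 1 had both day 3 arrays above all 4 others (4%, against 16.7% over all genes). At an unadjusted p under 0.05, 3 of the 25 were higher and 0 lower, against 1097 and 1143 of all 9009 genes. Fos read 3.29 and 2.68 on day 3, against 2.64 and 3.04 on day 1, 1.78 and 2.46 on day 10 and 2.54 in the control, so day 3 overlapped day 1. Without the day 1 arrays 11 of the 25 were called higher on day 3 and 0 lower, against 767 and 530 of all 9009 genes. Without the day 10 arrays 2 of the 25 were higher and 4 lower, against 1081 and 1050 of all genes.

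Set against each day alone in a fit with 3 levels of day, day 3 had 1002 genes higher (11.1%) and 903 lower (10%) than day 1, and 599 higher (6.65%) and 322 lower (3.57%) than day 10. The 2 contrasts share the day 3 arrays, so their values are given side by side. Slc7a14 differed by 1.89 from day 1 and 1.70 from day 10, Atp6v1a by 1.61 and 1.46, and Kcna1 by 1.38 and 1.68. Tubg1 differed by -0.74 and -0.71, and Laptm4a by -0.70 and -0.76. The median of the immediate early genes was -0.06 against day 1 and 0.30 against day 10, and that of the cerebellar markers 0.54 and -0.30. The split against day 1 moved with the scaling: 798 genes were higher and 1934 lower in the deposited values, and 904 and 1580 after median scaling.

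Between the doses on day 3 few genes differed by 2-fold or more: 2 were higher at 1250 mg/kg (0.0222%) and 3 lower (0.0333%), with no test, since each side is 1 array. S100a8, a neutrophil calcium-binding protein, read 1.27 at 1250 mg/kg and -0.07 at 50 mg/kg, and Serpina1b 0.51 and -0.81. The pituitary hormones differed most in the other direction, with Prl (prolactin) at -0.49 and 3.42 and Gh (growth hormone) at -0.69 and 2.31, in the same order of doses. Pcp2 read 1.93 and 3.02. Vapa was 0.94 higher and Ddx21 0.86 higher at 1250 mg/kg on day 3, and both were above all 4 other arrays at either dose. The 3 lower genes belong to pituitary and cerebellum, tissues whose share of a brain sample depends on the dissection, which was not tested.

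The brightest of the called genes had modest differences. Eef1a2, a translation elongation factor of neurons, read 7.79 and 7.70 on day 3, against 7.50 and 7.28 on day 1, 7.45 and 7.39 on day 10 and 7.48 in the control (0.34 ± 0.08, limma adjusted p = 0.0309). Ywhaz, a 14-3-3 adaptor protein, read 7.07 and 7.18 on day 3, against 6.31 and 6.53 on day 1, 6.69 and 6.63 on day 10 and 6.33 in the control (0.58 ± 0.11, limma adjusted p = 0.00997). Rps24, a protein of the small ribosomal subunit, fell by 0.43 on its brightest probe and differed by -0.09 on a far dimmer second one. Of these, Eef1a2 was not called in the deposited values, after median scaling or on its second probe (0.03), and neither Ywhaz nor Rps24 was called in the deposited values or after median scaling.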

How the data were processed

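The authors deposited 1 table of log2 intensities (log base taken as 2, not given in the sources used here) for the 7 arrays, and its background step, scanner software, centring and blanking rule are likewise not given in the sources used here. A second deposited table of linear intensities has 7 columns whose names match no sample label, and they were not used. Per the labels' protocols, total RNA was amplified with an Illumina kit and labelled with biotin.

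From these values the 13304 probes with a value on all arrays were quantile normalized over the 7 arrays, and each gene took its brightest probe by mean over all arrays (limma 3.58.1, R 4.3.3). Symbols came from the platform annotation and were brought up to date by Entrez ID with an NCBI gene table, in which all 12150 named probes were found. Of the others, 1154 are unnamed here and 0 had several symbols. The fit was lmFit and eBayes with an intensity trend, day 3 against days 1 and 10, with dose as a block (3 residual and 8.13 prior degrees of freedom), two-sided, Benjamini-Hochberg over 9009 genes, adjusted p under 0.05. Contrasts with single days came from 3 levels of day (2 residual degrees of freedom). The number of arrays limits the precision.

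Named genes are the 15 largest differences in each direction among called genes with no overlap, up to 4 members of each list described by size of difference, the 5 brightest called genes, and the 5 largest dose differences on day 3 in each direction, with a few further markers of brain cells, pituitary and cerebellum. Of 42 gene lists and 64 symbol families, 26 are described with named members and some others by counts or medians only, chosen after their counts were seen. The comparison, its members and the lists were chosen with earlier results of these data known. No list test or resampling was made, and the alternatives are given in the closing section.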

Additional observations from a re-analysis of the deposited data

Results flagged for a closer look

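Cort, the precursor of the interneuron peptide cortistatin, differed in opposite directions at the 2 doses: day 3 minus the mean of days 1 and 10 was -0.621 at 50 mg/kg and 0.158 at 1250 mg/kg. It read 2.17 and 3.13 on day 3, against 2.98 and 3.12 on day 1, 2.60 and 2.82 on day 10 and 3.18 in the control (50 and 1250 mg/kg in each pair). At 50 mg/kg day 3 lay below both other days and at 1250 mg/kg above both, and the difference between the doses was not tested. Of the 134 genes named, Cort alone lay outside both other days at both doses in opposite directions. Against the mean of the other days alone, Prl (1.95 at 50 mg/kg and -2.14 at 1250 mg/kg), Gh (1.42 and -2.03), Pcp2 (1.84 and -0.80) and En2 (1.11 and -0.40) also had opposite signs, and sizes larger than those of Cort.

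Probes with no gene symbol here also separated day 3. Of 1154 such probes 83 were called higher (7.19%) and 38 lower (3.29%) by limma over all 13304 probes. All 83 were above the control on both day 3 arrays, and 36 of the 38 were below it on both. Their differences ranged from -1.92 to 1.59. No group of arrays held 4 or more replicates, so single arrays could not be tested as outliers of a group.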

How the results depend on the processing

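The labels give no replicate numbers, so arrays were matched by dose alone. The counts of 533 genes higher and 223 lower on day 3 were recomputed under 19 other settings. Both stayed within 1.5 times under deposited values (422 higher and 228 lower), median scaling (474 and 234), quantile normalization of the 6 treated arrays (533 and 221), the mean of all probes (524 and 214), the second probe (614 and 248), no dose block (608 and 310) and no intensity trend (532 and 239). They were 245 and 130 among the brightest probes, where 4978 genes were tested. With 3 levels of day, which take the difference of days 10 and 1 out of the residual, they were 914 and 762 and held all 756 calls. The number lower was 571 with the control added to days 1 and 10 (769 higher), 530 without day 1 (767 higher), and 1050 without day 10 (1081 higher); with 1 residual degree of freedom left, both fits without a day take most of their error from the other genes. A random block for day, added once the data had been seen, gave 430 higher and 133 lower, all among the 756. Leaving out 1 array gave 83 to 666 higher and 0 to 394 lower, lowest without a day 3 array and highest without the day 10 array of 1250 mg/kg. For single days, in settings also added later, genes lower than on day 1 numbered 1934 in the deposited values and 1580 after median scaling, against 903. Among the brightest probes 566 were higher than on day 1, and 314 were higher and 204 lower than on day 10. On the second probe 48 of the 756 called genes changed sign, and of the genes named Esd (-0.056), Fip1l1 (-0.13), Gpm6a (-0.24), Ppp2r5e (-0.25) and Rbfox2 (-0.14) did. Of 94 named genes that were called, 17 lost the call under none of the settings, among them Slc7a14, Atp6v1a, Atp5a1, Kcna1, Pabpc1, Ddx3x, Stmn1 and Hspe1. Relative to all genes, the medians of 11 of the 26 lists changed sign in at least 1 setting. Under another scaling only the endosome list did (-0.05), and the liver list did among the brightest probes (0.10, 4 genes measured). The median of the cerebellar markers was -0.27 without day 1 and that of the immediate early genes -0.02 without day 10, against 0.12 and 0.22. Except where fewer genes or arrays were used, the cause was not tested. No detection p-values were used, so dim probes could not be told from background.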
